A study of Mus musculus with 30 samples.

Results

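The comparison set mice that drank either of a pair of antipsychotics, clozapine or haloperidol, as one side against mice that drank none, and asked which forebrain transcripts both drugs moved the same way. Its members are arrays chosen by their titles: 20 arrays of drug-treated mice (10 clozapine, 10 haloperidol) and 10 arrays of untreated control mice, which are all 30 arrays of the series. Each array (Affymetrix MOE430A, which carries sets of short probes against mouse transcripts) held the RNA of 1 male C57BL mouse, a common inbred strain, with no pooling of animals. The drugs were dissolved in drinking water for 12 weeks, clozapine at 12 mg/kg/day and haloperidol at 1.6 mg/kg/day, the highest clinical doses in man per the labels. Control mice had the same single housing and the same light and dark cycle, and no drug. The haloperidol protocol names clozapine beside its own dose, so the dose is taken from the dose label. The labels give an age of 4 weeks, which is not the age after 12 weeks of treatment, and they give the hemisphere as right in one field and left in another. Neither the hour of death nor any scan date is given in the labels.

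Clozapine, an atypical antipsychotic, binds dopamine, serotonin, histamine, adrenergic and muscarinic receptors, whereas haloperidol, a typical one, works chiefly by blocking the dopamine D2 receptor. Their shared action at the D2 receptor lies in forebrain circuits, above all in the striatum, where D2 receptors sit on enkephalin-producing neurons. Blocking these receptors is known to change the activity of those neurons and the transcription of activity-induced genes.

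The tissue carried the markers of its label. The neuronal genes Snap25 and Gad1 had means of 13.15 and 12.22 on the log2 scale over all arrays and the myelin gene Mbp 14.14, while the cerebellar genes Pcp2, Gabra6 and Cbln3 lay between 2.61 and 3.12 and the haemoglobin gene Hba-a1 at 2.56. The olfactory bulb markers Doc2g and Eomes varied between arrays, Doc2g from 3.94 to 9.06, and Ttr, made by the choroid plexus, was at 13.75. In bulk tissue such as this, fewer cells of a type and less RNA per cell cannot be told apart. Array medians ran from 4.63 to 4.88 on the log2 scale. Average-linkage clustering of the arrays, made blind to treatment, gave a cluster A (3 clozapine, 5 haloperidol and 3 control arrays), a cluster B (1, 3 and 4), a cluster C (5, 0 and 2) and 4 arrays on their own. Controls 7 to 10 all lay in cluster B. The difference between the 3′ and 5′ control probe sets of Gapdh and Actb, a sign of RNA quality, averaged 0.87 ± 0.45 in treated arrays (SD, n = 20) and 1.07 ± 1.09 in control arrays (SD, n = 10), with the widest values on control 1 (4.09) and haloperidol 7 (2.45). Control 1, haloperidol 2 and haloperidol 7 correlated least with their own groups, and are called the 3 outlying arrays here.

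No transcript passed the test for either antipsychotic against control. Of the 12944 probe sets with a mean log2 value of at least 4, 0 (0%) had an adjusted p under 0.05 in limma with Benjamini-Hochberg adjustment, and the smallest adjusted p was 0.9997. At an unadjusted p under 0.05 there were 406 probe sets (3.14%), of which 178 (1.38%) had a higher and 228 (1.76%) a lower mean in treated mice. A test with no difference anywhere would place 5% of probe sets under that threshold on average. Regardless of p, 6237 probe sets (48.2%) had a higher mean in treated mice. Only 51 probe sets (0.394%) had an unadjusted p under 0.01 and 5 of the 12944 an unadjusted p under 0.001. The probe sets are correlated with each other, so these shares vary more than independent tests would. The median 95% confidence interval reached 0.34 on the log2 scale to either side of the estimate, or 1.27-fold. Changes smaller than that were mostly not detectable with these arrays. The interval is that of a single probe set without adjustment, so larger changes could also miss the adjusted threshold. The count of calls depended on how arrays were weighted. With arrayWeights, which weights each array by its spread, limma called 1460 of the 12944 probe sets. The weights of controls 7 to 10, which all lay in cluster B, were 3.44 to 4.86, and those of all other arrays were 1.69 or less. How far these calls rest on those controls was not tested, and drug and cluster cannot be fully told apart there. With array cluster added to this weighting as a block, 1 probe set was called. In that last fit the 1 call was Eif3a, described below. The clusters were drawn from these same expression values. Clozapine 7, haloperidol 2, haloperidol 7 and control 1 each form a cluster alone. A cluster block gives each of them a term of its own, so they do not inform its differences.

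**Figure D1:**
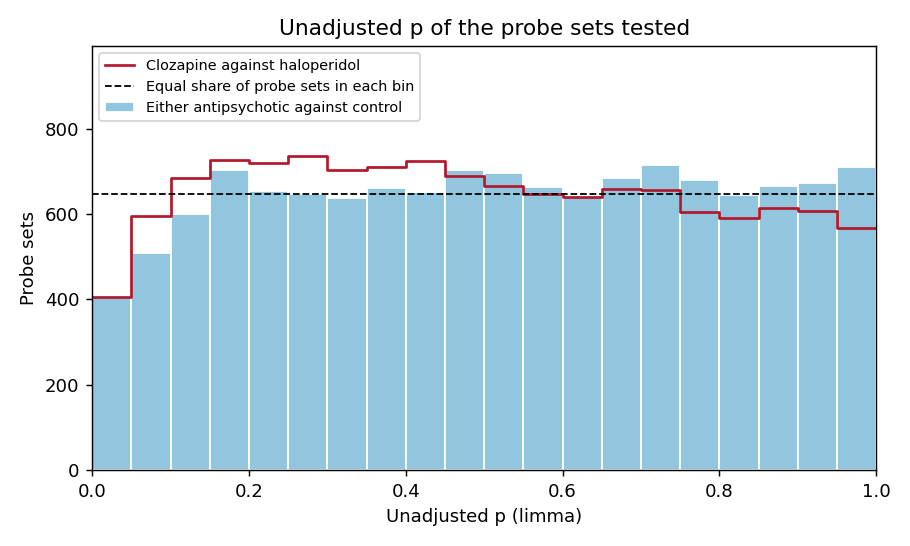
Number of probe sets (vertical axis) in each bin of unadjusted p (horizontal axis, 20 equal bins) for either antipsychotic against control (bars) and for clozapine against haloperidol (line), with the number an equal share would give (dashed). The lowest bin holds 406 probe sets in both comparisons and lies below the dashed line.

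Ranked by mean level into 4 groups of 3236 probe sets, the share at an unadjusted p under 0.05 was lower at higher levels. It was 3.99% in the group with the lowest means (4 to 5.71), 3.21% and 3% in the next groups, and 2.35% in the group with the highest means (8.73 to 14.14). In that highest group 24 of the probe sets under the threshold had a higher and 52 a lower mean in treated mice.

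Probe sets that both drugs moved the same way were counted as those with an unadjusted p under 0.05 and the same sign in each drug against control. There were 60 (0.464%), of which 29 (0.224%) were higher and 31 (0.239%) lower under both drugs, and 0 had opposite signs under the drugs at that threshold. Taken alone, clozapine against control placed 563 probe sets (4.35%) and haloperidol against control 298 (2.3%) at an unadjusted p under 0.05. Both drugs were set against the same 10 controls, so a control mean that is off by chance moves both differences together, and the count was not tested. The genes described below are those with the smallest unadjusted p in each direction, the largest differences among the 60, members of gene lists, and receptor and marker genes. None of their differences passed the test: each adjusted p was 0.9997 or more, and differences are therefore given as values with their standard error (SE) and unadjusted limma p.

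Of the named genes with a higher mean in treated mice, Dbp had the smallest p. It is a PAR bZIP transcription factor that is driven by the circadian clock and passes its rhythm on to other genes. Its log2 values ran from 9.07 to 10.84 in treated mice with a median of 9.95, against 8.66 to 10.1 with a median of 9.28 in control mice. The groups overlapped, but 19 of the 20 treated arrays lay above the control mean. The difference was 0.62 (SE 0.16, unadjusted p = 0.000514), or 1.54-fold. It was 0.74 under clozapine and 0.51 under haloperidol, and a second Dbp probe set gave 0.52 (SE 0.20, unadjusted p = 0.0131). The size of the difference varied between the array clusters: it was 0.028 within cluster A (8 treated and 3 control arrays), 0.53 within B (4 and 4) and 0.97 within C (5 and 2). Such values within a cluster rest on few arrays and are given without a test. With array cluster as a block it was 0.76 for clozapine but 0.15 for haloperidol.

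The clock is a loop in which Arntl (BMAL1) and its partners Clock or Npas2 switch on the Per and Cry genes through E-boxes, and the Per and Cry proteins then shut that activation off. Of 19 measured members of a list of 21 clock genes, 0 passed the test in either direction. At an unadjusted p under 0.05, 5 were higher and 1 lower, or 31.6% of the list, against 2.79% of the 7576 genes measured (105 higher and 106 lower, with 1 probe set per gene). The list was kept because earlier results from these arrays had pointed to it, so its share is a description. The list's median difference was 0.16, against 0.0037 over all genes measured.

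Per1 and Per2 are the repressors whose transcripts follow the clock and, in many tissues, acute stimuli. Per1 ran from 6.93 to 9.42 in treated mice with a median of 8.30, against 5.86 to 8.34 with a median of 7.67 in control mice, a difference of 0.54 (SE 0.26, unadjusted p = 0.0434). The lowest control value of Per1 was that of control 1, and without that array the difference was 0.35. Per2 ran from 5.10 to 7.15 in treated mice with a median of 5.90, against 4.52 to 6.62 with a median of 5.45 in control mice, a difference of 0.46 (SE 0.21, unadjusted p = 0.0399). In both genes the groups overlapped over most of their range. Cry2, another repressor of the loop, had a difference of 0.24 (SE 0.12, unadjusted p = 0.047). Bhlhe40, a repressor induced by the clock, had 0.29 (SE 0.14, unadjusted p = 0.0468). Cry2 and Bhlhe40 were named after their values were seen. Among arrays numbered 7 to 10, against those numbered 1 to 6, the difference was 0.24 against 0.74 for Per1, 0.83 against 0.21 for Per2, 0.38 against 0.15 for Cry2 and 0.60 against 0.083 for Bhlhe40.

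Arntl, the activator, was the 1 clock gene lower at that threshold. It ran from 5.33 to 7.22 in treated mice with a median of 5.96, against 5.90 to 7.48 with a median of 6.11 in control mice, a difference of -0.40 (SE 0.18, unadjusted p = 0.03). The medians differed less than the means, and 3 of the control arrays, all numbered 6 or below, lay at 6.72, 7.46 and 7.48. The highest of these was control 1, which is among the 3 outlying arrays. The difference was -0.058 among arrays numbered 7 to 10 and -0.63 among those numbered 1 to 6.

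Windows from 250 bases before to 50 after the RefSeq starts of Per1 and Arntl (assembly GRCm38.p6) are shown because these genes stand on opposite sides of the loop and had differences of opposite sign. RefSeq gives each of them 2 windows, of which the one with a motif is shown; the other window of Per1 and that of Arntl hold neither motif. Capitals mark the E-box CACGTG and the receptor element AGGTCA, which appears as TGACCT where it lies on the other strand. Both motifs were searched on both strands and do not overlap here.
Per1, chr11:69098699-69098998, plus strand: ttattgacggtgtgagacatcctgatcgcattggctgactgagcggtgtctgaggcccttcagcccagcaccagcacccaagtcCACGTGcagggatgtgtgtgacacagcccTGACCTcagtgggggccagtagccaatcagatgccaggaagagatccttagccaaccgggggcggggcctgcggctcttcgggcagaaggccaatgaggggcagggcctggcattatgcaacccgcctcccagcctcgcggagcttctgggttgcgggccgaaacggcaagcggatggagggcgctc
Arntl, chr7:113207261-113207560, plus strand: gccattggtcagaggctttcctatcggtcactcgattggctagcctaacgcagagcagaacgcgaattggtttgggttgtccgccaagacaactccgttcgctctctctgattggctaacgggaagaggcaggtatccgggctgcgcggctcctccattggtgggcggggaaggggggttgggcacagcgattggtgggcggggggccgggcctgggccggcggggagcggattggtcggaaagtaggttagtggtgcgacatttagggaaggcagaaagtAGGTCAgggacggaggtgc

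An E-box was present in 2349 of 32851 RefSeq windows of this length (7.15%) and AGGTCA in 5340 (16.3%). Of the 21 clock genes, 18 had a window, and 5 of these held an E-box: Bhlhe41, Ciart, Cry1, Per1 and Tef. Some of these genes have several windows, so this count by gene is not on the scale of the share by window. The windows of Dbp and Cry2 held neither motif. A match of letters is a description of the window, not a site that was measured here.

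The other clock genes had smaller or more variable differences. Npas2 had 0.42 (SE 0.22), Cry1 0.25 (SE 0.14), Per3 0.18 (SE 0.12) and Tef 0.16 (SE 0.14), while Clock had -0.11 (SE 0.17) and Nr1d2 -0.051 (SE 0.18). Another Tef probe set had the opposite sign, -0.31 (unadjusted p = 0.33), and -0.78 among arrays numbered 7 to 10 (limma with Benjamini-Hochberg adjusted p = 0.0432). Nr1d1, which represses Arntl, had 0.66 under clozapine and -0.20 under haloperidol. Csnk1e, a kinase that phosphorylates Per proteins, had the most negative pooled difference, -1.14, with an SE of 0.60. The plot of the clock genes shows where the drugs lie on the same side of 0 and where they do not.

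**Figure D2:**
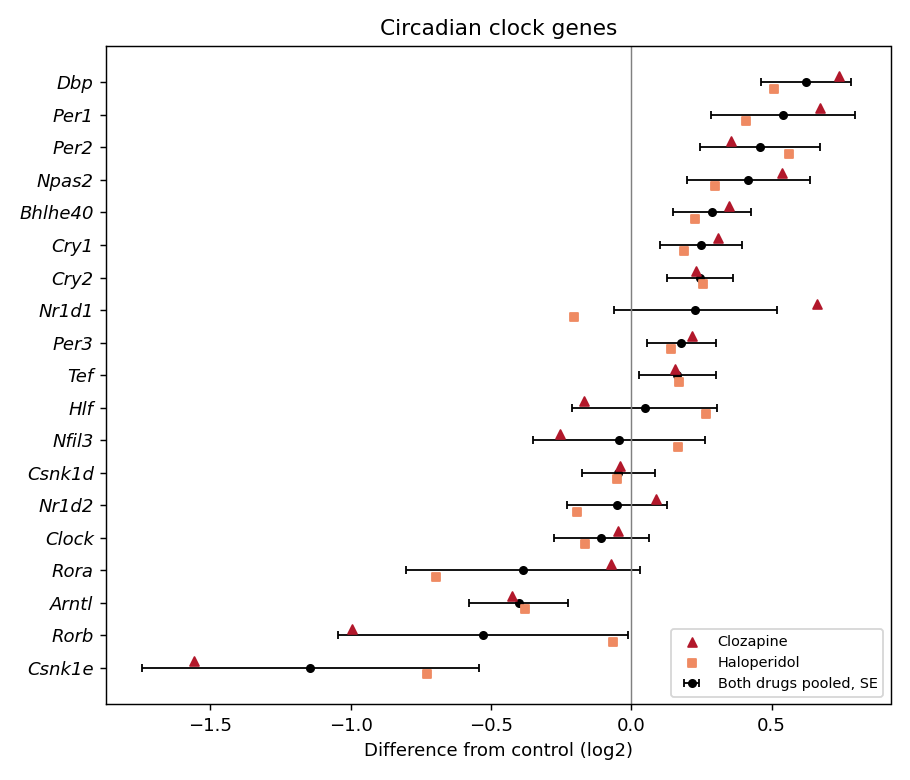
Log2 difference from control (horizontal axis) of the 19 measured clock genes, 1 probe set per gene, with clozapine as triangles, haloperidol as squares and the pooled difference as dots with bars of 1 SE. Dbp, Per1 and Per2 lie highest, at 0.62, 0.54 and 0.46, and Csnk1e lowest at -1.14 with the widest bar.

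Egr1, an activity-induced transcription factor, was in the leading genes although 0 of the 14 measured immediate early genes passed the test. It ran from 11.21 to 11.78 in treated mice with a median of 11.35, against 10.62 to 11.49 with a median of 11.19 in control mice. All 20 treated arrays lay above the control mean, and 4 lay above every control. The difference was 0.27 (SE 0.088, unadjusted p = 0.00443), or 1.21-fold, with 0.24 under clozapine and 0.30 under haloperidol. It was 0.48 among arrays numbered 7 to 10, where the 4 controls lay at 10.62 to 11.21, against 0.13 among those numbered 1 to 6, and it was -0.050 within cluster C.

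Srf, the serum response factor that drives many immediate early genes, had a mean of 8.32 ± 0.34 in treated mice (SD, n = 20) and 7.92 ± 0.27 in control mice (SD, n = 10), a difference of 0.40 (SE 0.13, unadjusted p = 0.00381). A second Srf probe set gave 0.028 (SE 0.089), so the gene's probe sets disagree. Jund, a subunit of the AP-1 factor, had a difference of 0.20 (SE 0.088, unadjusted p = 0.0332). Fos and Arc, the usual reporters of recent neuronal activity, had -0.044 (SE 0.16) and 0.054 (SE 0.29), and the sign of the Arc difference turned under several of the alternatives. The median of the immediate early list was 0.14 and was -0.086 with array cluster as a block. At an unadjusted p under 0.05, 2 of its 14 members were higher and 0 lower, or 14.3%, against 2.79% of all genes measured.

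The smallest p of all named genes was that of Sppl2a, an intramembrane protease that cleaves membrane-bound protein fragments in endosomes and lysosomes. It ran from 4.97 to 5.68 in treated mice with a median of 5.22, against 5.02 to 6.38 with a median of 5.75 in control mice. The 20 treated arrays all lay below the control mean, within a narrow band, and the controls were spread over a wider one. The difference was -0.49 (SE 0.12, unadjusted p = 0.00022), or 0.71-fold, with -0.53 under clozapine and -0.45 under haloperidol. The 4 controls numbered 7 to 10 lay at 5.91 to 6.38 and the 6 numbered 1 to 6 at 5.02 to 5.78. Among arrays numbered 7 to 10 the difference was -0.87, among those numbered 1 to 6 it was -0.24, and within cluster C it was -0.0018. A second Sppl2a probe set gave -0.27 (SE 0.19), and another, below the filter on low values, gave -1.21 (SE 0.42).

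**Figure D3:**
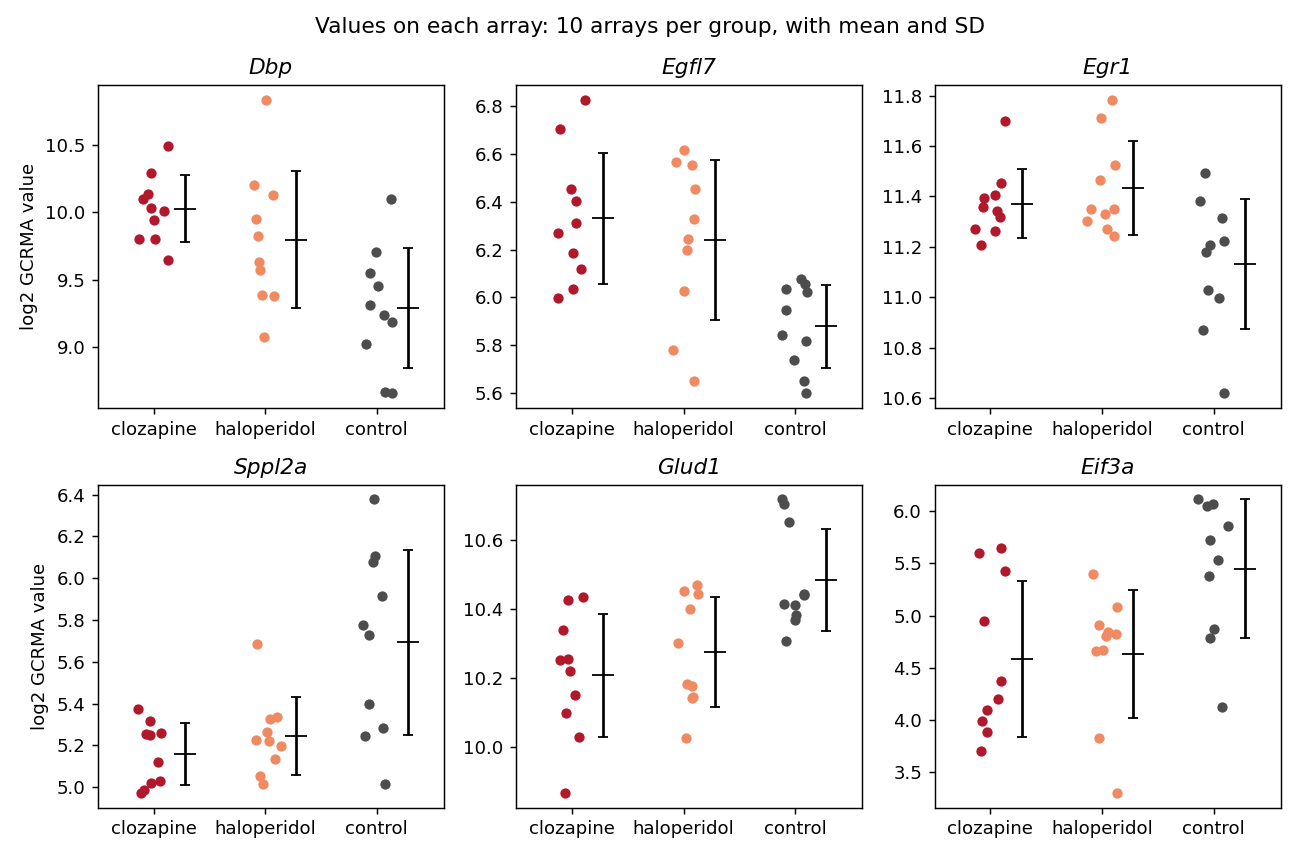
Log2 GCRMA value (vertical axis) of 6 leading genes on every array, in clozapine, haloperidol and control mice, 10 arrays each, with the mean and SD beside the points. Treated and control arrays overlap in every panel, and the Sppl2a controls spread from 5.02 to 6.38 while the treated arrays lie between 4.97 and 5.68.

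Camk4, a calcium and calmodulin-dependent kinase that phosphorylates transcription factors in neurons, had the same shape. It ran from 5.23 to 6.38 in treated mice with a median of 5.62, against 5.52 to 7.12 with a median of 6.01 in control mice, a difference of -0.53 (SE 0.16, unadjusted p = 0.00232). Controls 7 to 10 lay at 6.62 to 7.12, above every treated array, whereas controls 1 to 6 lay at 5.52 to 6.03, inside the treated range. Clozapine 7 to 10 lay at 5.32 to 5.67, haloperidol 7 at 5.61 and haloperidol 8 to 10 at 6.08 to 6.38. The difference was -1.06 among arrays numbered 7 to 10 and -0.18 among those numbered 1 to 6. A fit of the difference between these sets of arrays (7 to 10 minus 1 to 6) gave -0.89 for Camk4 (unadjusted p = 4.03e-05, limma with Benjamini-Hochberg adjusted p = 0.141).

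Eif3a, the largest subunit of the eIF3 complex that loads the small ribosomal subunit onto mRNA, had the lowest ratio but one of the leading genes. It ran from 3.30 to 5.65 in treated mice with a median of 4.74, against 4.13 to 6.11 with a median of 5.63 in control mice. The difference was -0.84 (SE 0.25, unadjusted p = 0.00233), or 0.56-fold, with -0.86 under clozapine and -0.82 under haloperidol. Of the leading genes it alone passed the test in a fit with array cluster as a block, with -0.69 (SE 0.095, limma with Benjamini-Hochberg adjusted p = 0.00199). Control 1, the lowest Eif3a control at 4.13, is a cluster alone and does not inform that fit. In that fit the difference was -0.46 for clozapine and -0.91 for haloperidol. It was -0.53, -0.84 and -0.72 within clusters A, B and C, and -0.31 (unadjusted p = 0.309) among arrays numbered 1 to 6. The 3 other Eif3a probe sets gave -0.087 (SE 0.16), -0.17 (SE 0.24) and -0.23 (SE 0.26), each within 1 SE of 0 and smaller than the leading one.

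Other RNA-binding and translation genes were among those with lower means. Elavl1 (HuR), which stabilises AU-rich mRNAs, averaged 6.44 ± 0.27 in treated mice (SD, n = 20) and 6.80 ± 0.23 in control mice (SD, n = 10), a difference of -0.35 (SE 0.11, unadjusted p = 0.00267). Srsf5, a serine and arginine-rich splicing factor, had -0.41 (SE 0.13, unadjusted p = 0.00335), with -0.30 under clozapine and -0.52 under haloperidol. Tra2b, a splicing activator, had -0.39 (SE 0.15, unadjusted p = 0.0135), but its other probe set gave 0.073 (SE 0.12). The helicase Ddx5 had -0.31 (SE 0.13, unadjusted p = 0.0229), with 4 other tested probe sets at -0.20 to -0.055, and Eif3c, another eIF3 subunit, -0.22 (SE 0.084, unadjusted p = 0.0145), with 3 others at -0.67 to -0.0010. Of 27 measured splicing factors, 0 passed the test, and 0 higher and 2 lower (7.41%) were at an unadjusted p under 0.05, against 2.79% of all genes measured. The median of the splicing factors was -0.044. That median was 0.16 among arrays numbered 7 to 10 and -0.28 among those numbered 1 to 6. Of 18 translation initiation factors, 0 passed and 0 higher and 1 lower (5.56%) were at that threshold, against 2.79% of all genes measured. Their median was -0.076. Lists take, for each gene, its probe set of highest mean, which for Eif3a and Tra2b is another than the one described here.

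Genes of the secretory pathway and of the cell surface lay on both sides. Sec61a1, the pore subunit of the endoplasmic reticulum translocon, had a difference of 0.44 (SE 0.14, unadjusted p = 0.00343), while 5 other Sec61a1 probe sets ranged from -0.56 to 0.12, 2 of them below 0. Rpn1, a subunit of the oligosaccharyltransferase beside that pore, averaged 10.3 ± 0.22 in treated mice (SD, n = 20) and 10.58 ± 0.17 in control mice (SD, n = 10), a difference of -0.28 (SE 0.091, unadjusted p = 0.00385). All 4 other Rpn1 probe sets had the same sign, and 2 of them were at an unadjusted p under 0.05. B2m, the light chain of MHC class I molecules, had -0.49 (SE 0.16, unadjusted p = 0.00396) and its second probe set -0.24 (SE 0.18). With array cluster as a block the B2m difference was -0.32. Of 8 measured MHC class I and interferon genes 0 passed the test, with a median of -0.088, which was 0.13 among arrays numbered 7 to 10 and -0.16 among those numbered 1 to 6.

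Signalling genes also lay on both sides. Gng13, a G protein gamma subunit, ran from 8.61 to 10.35 in treated mice with a median of 9.01, against 7.57 to 9.04 with a median of 8.68 in control mice. All 20 treated arrays lay above the control mean, and the difference was 0.61 (SE 0.19, unadjusted p = 0.0035), or 1.52-fold. It was 0.37, 0.072 and 1.44 within clusters A, B and C. Slc9a3r1 (NHERF1), a PDZ scaffold for membrane receptors and transporters, had 0.43 (SE 0.14, unadjusted p = 0.00484), and 0.24 with array cluster as a block. Grk5, a kinase that desensitises G protein-coupled receptors, had -0.33 (SE 0.11, unadjusted p = 0.00429), with -0.41 under clozapine and -0.25 under haloperidol. Lims1 (PINCH1), an adaptor of integrin adhesions, had -0.75 (SE 0.24, unadjusted p = 0.00444), with -1.06 under clozapine and -0.44 under haloperidol, and -0.40 with array cluster as a block.

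Among metabolic genes, Glud1, the mitochondrial glutamate dehydrogenase, had the smallest of the leading differences. It ran from 9.87 to 10.47 in treated mice with a median of 10.24, against 10.31 to 10.72 with a median of 10.43 in control mice. All 20 treated arrays lay below the control mean, and 13 lay below every control. The difference was -0.24 (SE 0.077, unadjusted p = 0.00339), or 0.84-fold, with -0.15, -0.18 and -0.20 within clusters A, B and C. Me2, the mitochondrial malic enzyme, had -0.72 (SE 0.24, unadjusted p = 0.00473), but its other probe set gave 0.058 (SE 0.24). Cox15, which makes the haem A of cytochrome oxidase, had -0.33 (SE 0.11, unadjusted p = 0.00502), and -0.053 among arrays numbered 7 to 10, and its other tested probe sets gave 0.013 (SE 0.23) and -0.089 (SE 0.14). Glod4, a glyoxalase-domain protein, had -0.37 (SE 0.11, unadjusted p = 0.00122), and -0.41 with array cluster as a block. Mpv17l, a peroxisomal and mitochondrial membrane protein, had 0.36 (SE 0.12, unadjusted p = 0.00496). Of 25 measured respiratory chain genes 0 passed the test, with 1 higher and 1 lower (8%) at an unadjusted p under 0.05, against 2.79% of all genes measured. Their median was -0.043.

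The remaining genes with higher means were of varied function. Egfl7, a protein secreted by endothelial cells, ran from 5.65 to 6.83 in treated mice with a median of 6.29, against 5.60 to 6.08 with a median of 5.90 in control mice. Of the treated arrays, 15 lay above every control, more than for any other leading gene, and the difference was 0.41 (SE 0.11, unadjusted p = 0.000841). Its 3 other probe sets gave 0.0054 (SE 0.099), 0.12 (SE 0.23) and 0.054 (SE 0.12), and 0 of 12 measured endothelial and pericyte markers passed the test, with a median of -0.083. That median was 0.30 among arrays numbered 7 to 10 and -0.21 among those numbered 1 to 6. Apex1, the endonuclease of base excision repair, had 0.38 (SE 0.11, unadjusted p = 0.00223), and 0.24 with array cluster as a block. Ncan (neurocan), a proteoglycan of the brain's extracellular matrix, had 0.40 (SE 0.14, unadjusted p = 0.00598), while its second probe set gave -0.41 (SE 0.53). Haus4, a subunit of the microtubule-branching augmin complex, had 0.47 (SE 0.15), Nhsl1 0.43 (SE 0.14), Poldip3 0.40 (SE 0.13), Prr12 0.40 (SE 0.12) and Trbv1, a T cell receptor gene segment, 0.36 (SE 0.12). The differences counted in both drugs added Il17d, a cytokine of the interleukin-17 family, with 0.52 (SE 0.18), S100a10 with 0.43 (SE 0.18) and the tropomyosin gene Tpm2 with 0.41 (SE 0.16). The other tested probe set of S100a10 gave 0.017 (SE 0.14), and those of Tpm2 0.23 (SE 0.12) and 0.27 (SE 0.20).

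The remaining genes with lower means included the most negative of the leading differences. Zfp292, a zinc finger protein, ran from 4.12 to 6.78 in treated mice with a median of 5.31, against 5.21 to 7.29 with a median of 6.499 in control mice, a difference of -0.89 (SE 0.28, unadjusted p = 0.00389). The 3 other Zfp292 probe sets gave 0.15, 0.13 and -0.068, with SEs of 0.17, 0.18 and 0.32. Lcorl, a transcriptional cofactor, ran from 4.10 to 6.34 in treated mice with a median of 5.12, against 5.01 to 6.92 with a median of 5.98 in control mice, a difference of -0.83 (SE 0.22, unadjusted p = 0.000721). It was -0.55, -0.54 and -0.67 within clusters A, B and C. Ccnh, the cyclin of the CDK-activating kinase, had -0.57 (SE 0.19, unadjusted p = 0.00453). Clip4 and Fundc1, a mitophagy receptor, were added by the count in both drugs, Clip4 with -0.71 (SE 0.26) and Fundc1 with -0.60 (SE 0.20). With array cluster as a block they had -0.40 and -0.34. The 4 other tested Clip4 probe sets ranged from -0.28 to 0.088, and the other Fundc1 probe set gave -0.073 (SE 0.20).

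**Figure D4:**
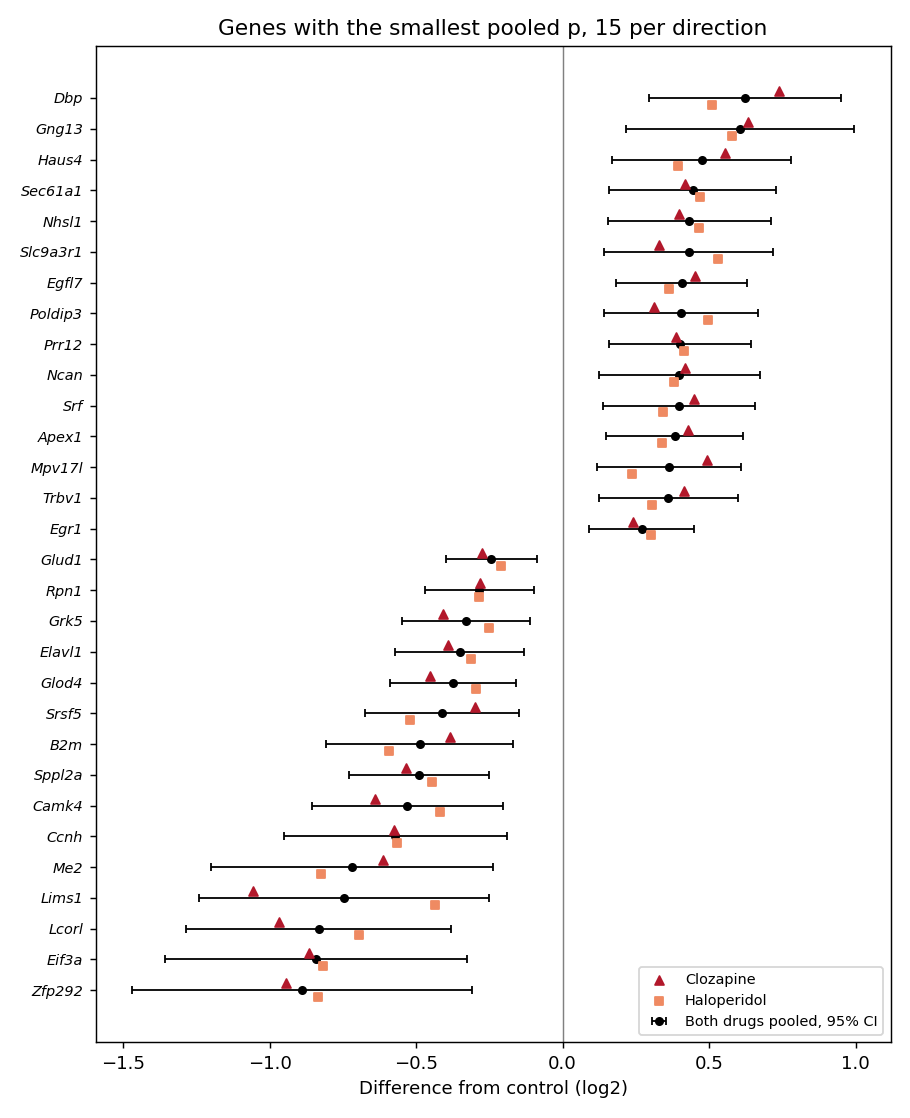
Log2 difference from control (horizontal axis) of the 15 genes per direction with the smallest unadjusted p, with the pooled difference and its 95% confidence interval (dots and bars), clozapine (triangles) and haloperidol (squares). Lims1 shows the widest gap between the drugs, -1.06 under clozapine and -0.44 under haloperidol.

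Groups and probe sets of these leading genes were not clearly apart. In 0 of the 30 leading genes did the treated and control arrays separate without overlap. Of the 30, 19 had another tested probe set, 38 in all, of which 32 had the same sign and 5 also had an unadjusted p under 0.05. The mean level was under 6 in 12 of the 30, 4 with higher and 8 with lower means in treated mice. With array cluster as a block, 28 of the 30 differences were smaller in size, at 54.26% of the pooled difference or more.

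The drugs were set against each other to see how far they could differ in these genes. Over all 12944 probe sets, 0 (0%) passed for clozapine against haloperidol and 406 (3.14%) had an unadjusted p under 0.05, with a smallest adjusted p of 0.9648. Among the 30 leading genes 1, Lims1, had an unadjusted p under 0.05 between the drugs, with a difference of -0.62 and a 95% confidence interval from -1.19 to -0.050. Over the 30 genes the difference between the drugs ran from -0.62 to 0.26. The median half-width of its interval was 0.31, against a median pooled size of 0.42, so a drug difference of much of the pooled size was often within the interval. For Dbp the interval ran from -0.15 to 0.61, for Sppl2a from -0.36 to 0.19, for Egr1 from -0.27 to 0.14 and for Glud1 from -0.25 to 0.11.

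Genes of the drugs' receptors and of the striatal output neurons were described by a fixed choice. Most receptor genes were not measured: of 22 listed serotonin, histamine, adrenergic and muscarinic receptors 4 were, and of 17 dopamine genes 8. Drd1, Htr2a, Chrm1, Chrm4, Adra1b and Adra2a of the fixed choice were not among the genes tested. Drd2, the dopamine D2 receptor, ran from 5.69 to 7.39 in treated mice with a median of 6.44, against 4.71 to 7.04 with a median of 6.23 in control mice, a difference of 0.32 (SE 0.22, unadjusted p = 0.16). Without control 1 it was 0.16. Hrh1, the histamine H1 receptor, had 0.38 (SE 0.18, unadjusted p = 0.0373), with 14 of the 20 treated arrays above the control mean, and -0.069 within cluster A. Htr2c, the serotonin 2C receptor, varied widely, from 3.18 to 7.75 in treated mice and from 3.45 to 7.44 in control mice, with a difference of -0.42 (SE 0.56). Penk, the enkephalin precursor of D2 receptor-bearing striatal neurons, had 0.22 (SE 0.11, unadjusted p = 0.0585), with 0.10 under clozapine and 0.33 under haloperidol. It was 0.62 among arrays numbered 7 to 10 and -0.053 among those numbered 1 to 6. Tac1 and Pdyn, peptide precursors of the D1 receptor-bearing neurons, had -0.12 (SE 0.16) and 0.040 (SE 0.080). Of 8 measured dopamine genes and 11 striatal markers, 0 passed the test and 0 were at an unadjusted p under 0.05, with medians of -0.042 and 0.059.

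Members of the GABA list had mostly lower means in treated mice, 9 of 11, against 3708 of the 7576 genes measured. Gad2, which makes GABA at terminals, ran from 4.76 to 8.98 in treated mice with a median of 6.92, against 5.91 to 9.36 with a median of 7.46 in control mice, a difference of -1.05 (SE 0.44, unadjusted p = 0.0231). Gabra2, a GABA-A receptor subunit, had -0.61 (SE 0.30, unadjusted p = 0.0491). With array cluster as a block they had -0.42 and -0.15. Among arrays numbered 7 to 10 they had -2.44 and -1.34, and among those numbered 1 to 6 they had -0.13 and -0.12. Gad2 lay at 5.405 to 6.37 on clozapine 7 to 10 and at 4.76 on haloperidol 7. It lay at 8.45 to 8.98 on haloperidol 8 to 10 and at 9.13 to 9.36 on controls 7 to 10. Gabra2 lay at 5.33 to 8.09 on clozapine 7 to 10 and at 6.05 on haloperidol 7. It lay at 8.73 to 8.93 on haloperidol 8 to 10 and at 8.835 to 9.12 on controls 7 to 10. Of 11 measured members, 0 passed the test, 0 higher and 2 lower (18.2%) were at an unadjusted p under 0.05, against 2.79% of all genes measured, and the median was -0.17. Gad1, the other GABA-synthesising enzyme, had -0.078.

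Further lists also had 0 members past the test in either direction. Mt2, a metal-binding metallothionein, was the 1 of 18 antioxidant genes (5.56%) at an unadjusted p under 0.05, against 2.79% of all genes measured. Mt1 had 0.17 (SE 0.10). The Mt2 difference was 0.27 (SE 0.10, unadjusted p = 0.0113), with 0.39 under clozapine and 0.16 under haloperidol. It was 0.25, 0.35 and 0.25 within clusters A, B and C, and 0.44 among arrays numbered 7 to 10 against 0.16 among those numbered 1 to 6. Of 20 ribosomal protein genes, 13 had higher means, against 3868 of the 7576 genes measured. Their median was 0.11, and 0.026 with array cluster as a block. Mvk, an enzyme of cholesterol synthesis, had 0.36 (SE 0.14), but the median of 18 cholesterol genes was 0.028. Atf4, a transcription factor of the unfolded protein response, had 0.33 (SE 0.14) while its 2 other tested probe sets gave 0.13 (SE 0.18) and 0.0097 (SE 0.21), and the 18 genes of that list had a median of 0.039. The medians of the lists for synaptic vesicle genes, glutamate receptors, Akt, GSK3 and Wnt signalling, glycolysis and proteasome subunits lay between -0.061 and -0.0012.

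List medians of cell type markers lay between -0.12 and 0.11. The 13 oligodendrocyte markers had 12 lower means, against 3708 of the 7576 genes measured, and a median of -0.11, which was 0.026 among arrays numbered 7 to 10 and -0.18 among those numbered 1 to 6. The medians of 17 astrocyte, 13 microglia, 12 cortical and 7 choroid plexus markers were -0.013, -0.00055, -0.071 and 0.093. Single markers stood out: Cx3cr1, a microglial receptor, had -0.74 (SE 0.34, unadjusted p = 0.0378), with 3.81 on 1 clozapine array, -1.56 among arrays numbered 7 to 10 and -0.20 among those numbered 1 to 6, while Csf1r, also of microglia, had 0.060. Camk2a, of cortical neurons, had -1.27 (unadjusted p = 0.154), with values from 2.96 on control 1 to 11.32 on control 8. Sox9, an astrocyte factor, had 0.36 (SE 0.16). Foxp1, of striatal neurons, had 0.71 (SE 0.30), with 1.10 under clozapine and 0.31 under haloperidol. The lowest Foxp1 control was control 1 at 2.62, with the next at 3.80. The 6 other tested Foxp1 probe sets ranged from -0.29 to 0.70, and the one counted in the list gave 0.11 (SE 0.24). Of the 11 blood and 9 pituitary markers, 0 had a mean above the filter. Single arrays lay far above such means: the pituitary gene Gh, with a mean of 3.79, reached 9.17 on its highest array. The blood gene Alas2, with a mean of 1.995, reached 5.95. The part of any of these markers in the differences above was not tested.

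The pooled comparison was also made within arrays numbered 7 to 10 and within those numbered 1 to 6, since controls 7 to 10 share a cluster. Among arrays numbered 7 to 10 (8 treated, 4 control), 33 of 12944 probe sets passed in limma with Benjamini-Hochberg adjustment. Of these, 1 had a higher and 32 a lower mean in treated mice. At an unadjusted p under 0.05 there were 2833 (21.9%). In the same arrays clozapine against haloperidol called 32 of 12944 probe sets, so the pooled differences there need not hold for each drug. Among those numbered 1 to 6 (12 treated, 6 control), 0 probe sets passed and 620 (4.79%) were at an unadjusted p under 0.05. The test of the difference between these sets of arrays called 0 probe sets (smallest adjusted p = 0.0673), with 2370 (18.3%) at an unadjusted p under 0.05. Of the leading genes, 13 of the 15 with lower means and 9 of the 15 with higher means had a larger difference in size among arrays numbered 7 to 10. These genes were chosen on the same arrays, so their shared sign in both sets is no sign of stability. Among arrays numbered 7 to 10, treatment and array cluster cannot be fully told apart: the 4 controls all lay in cluster B, together with haloperidol 8, 9 and 10 and no clozapine array of those numbers.

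**Figure D5:**
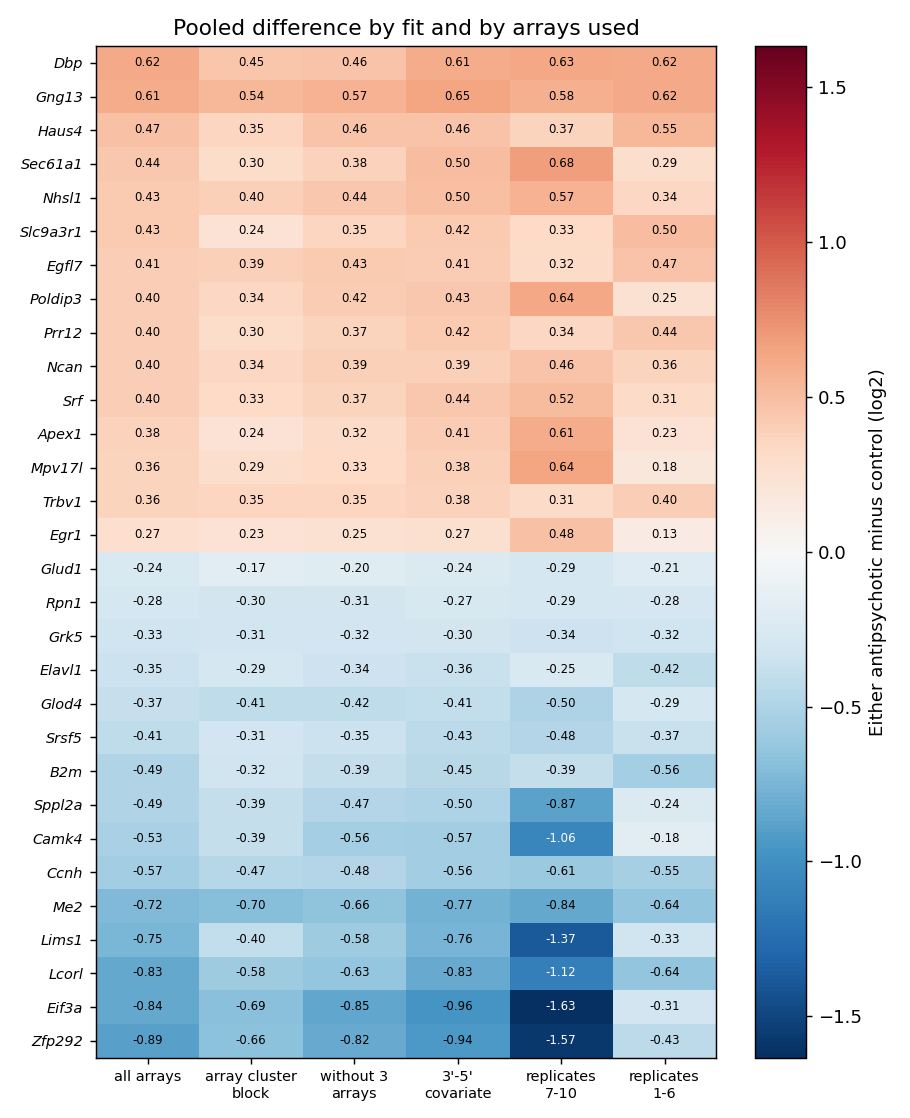
Log2 difference, either antipsychotic minus control, of the 30 leading genes (rows) in the fit of all arrays, with array cluster as a block, without the 3 outlying arrays, with the 3′ minus 5′ difference as a covariate, and within arrays numbered 7 to 10 and 1 to 6 (columns). Signs do not turn, and Eif3a, Zfp292, Lims1 and Lcorl are darkest among arrays numbered 7 to 10, at -1.63, -1.57, -1.37 and -1.12.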

How the data were processed

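The log2 values deposited by the authors, 1 per probe set and array, came from GCRMA per the submitters' processing notes, with no version given. GCRMA removes background using probe sequence, scales arrays to each other and combines a set's probes, which compresses low values. After removal of 64 Affymetrix controls from 22690 probe sets, the 12944 whose mean across the 30 arrays reached 4 were tested. Names came from the supplied platform annotation: 20380 probe sets had 1 symbol, 691 several and 1555 none, and only the first were named.

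limma 3.58.1 in R 4.3.3 (lmFit, eBayes, two-sided, 27 residual degrees of freedom) fitted a mean per group, with the contrast of the drugs' average minus control and Benjamini-Hochberg adjustment over all probe sets tested; the code was tested on simulated data. The number of arrays limits the precision. The members, gene lists and the rule for named genes (in each direction the 15 smallest p, with up to 8 in both drugs by size, 4 per list and 20 fixed genes, by the probe set with the smallest p; other genes and all list counts by the highest mean) were chosen with earlier results of these data known. Alternatives were another model, filter, block, covariate, weighting and normalization, and fits without single arrays. Promoter windows came from RefSeq. No list was tested as a set. Not every gene the rule allows is described here.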

Additional observations from a re-analysis of the deposited data

Results flagged for a closer look

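In 19 of 192 groups of 10 arrays, over 64 genes, 1 array lay far from the others of its group; chance alone places about 5% of groups there. Haloperidol 2, which correlated least with its group, was such an array in 4 genes: Srf at 9.46 (next 8.54), Trbv1 at 6.39 (next 5.83), Rpn1 at 10.93 (next 10.34) and Jund at 10.85 (next 10.37). Haloperidol 7 was in 2, Nhsl1 at 8.38 (next 7.6) and Grk5 at 5.38 (next 5.08). Clozapine 7, an array on its own in the clustering, was low in Gabra2 at 5.33 (next 7.12) and in Cx3cr1 at 3.81 (next 6.34).

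Control 5 was high in Haus4 at 6.3 (next 5.81) and low in Clip4 at 6.64 (next 7.67) and Tac1 at 8.87 (next 9.62). The other cases were 1 gene per array. Apex1 was at 7.62 on clozapine 1 (next 8.19), Srf at 8.63 on clozapine 6 (next 8.43), Rpn1 at 9.79 on clozapine 9 (next 10.16) and Egr1 at 11.7 on clozapine 10 (next 11.45). Arntl was at 7.22 on haloperidol 4 (next 6.22), Pdyn at 3.93 on haloperidol 9 (next 4.36), Sppl2a at 5.68 on haloperidol 10 (next 5.34) and Jund at 9.56 on control 6 (next 9.87).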

How the results depend on the processing

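With the replicate number as a block 0 probe sets were called and 676 (5.22%) had an unadjusted p under 0.05. In both drugs and in the same direction 96 had it. With a block of numbers 1 to 6 and 7 to 10 these were 0, 554 (4.28%) and 78. The main fit did not take the numbers as pairs. Of 30 pairs of equal number, 17 deviated together with a correlation over 0.1 (range -0.501 to 0.8). The median was 0.165 for equal and -0.133 for other numbers, and 4 of 30 arrays correlated best with their own number. These values do not settle whether arrays of equal number belong together, which was not tested. The calls for either antipsychotic against control were 1 with array cluster as a block, 1460 (698 higher, 762 lower) with arrayWeights, 33 among arrays numbered 7 to 10 and 1 with arrayWeights and the cluster block together, an alternative chosen after seeing the data. They were 0 under every other alternative, leaving out control 1, haloperidol 2 or haloperidol 7 included. Probe sets at an unadjusted p under 0.05 numbered 736 with no filter on low values (3.25% of 22626). With a mean of at least 6 they numbered 259 (2.83% of 9158). They numbered 707 (5.46%) with the cluster block, 817 (6.31%) with the 3′ minus 5′ covariate and 4001 (30.9%) with arrayWeights. There were 2833 (21.9%) among arrays numbered 7 to 10 and 620 (4.79%) among those numbered 1 to 6. With arrayWeights and the cluster block there were 1325 (10.2%), and without single arrays 391 to 518 (3.02% to 4%). Those in both drugs in the same direction numbered 114 with no filter, 100 with the cluster block, 143 with the covariate, 1210 with arrayWeights, 301 among arrays numbered 7 to 10, 250 with arrayWeights and the cluster block, and 50 to 68 without single arrays. Clozapine against haloperidol called 32 among arrays numbered 7 to 10 and 0 otherwise. Quantile normalization gave 251 higher and 176 lower at an unadjusted p under 0.05, against 178 and 228. Of the 406, 208 kept sign and threshold with the cluster block, 89 among arrays numbered 1 to 6 and 226 without the 3 outlying arrays. The cause of these changes was not tested.

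Of 64 genes under 17 alternatives, 12 results turned sign. Arc had -0.11 with the cluster block, -0.10 with arrayWeights added, -0.036 with the covariate, -0.047 without the 3 outlying arrays, -0.088 among arrays numbered 7 to 10, and -0.088 to 0.17 without control 1, haloperidol 2 or haloperidol 7. Drd2 had -0.074 with arrayWeights, Htr2c 0.064 with the cluster block and 0.092 with arrayWeights added, Penk -0.053 among arrays numbered 1 to 6 and Tac1 0.27 among those numbered 7 to 10. Among list medians 14 moved by more than the spread between control arrays and 562 did not.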

Other observations

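Of the 33 probe sets that passed among arrays numbered 7 to 10, 32 had lower means in treated mice. Among arrays numbered 1 to 6 their differences lay on both sides of 0, from -0.64 (Lcorl) to 1.07 (Ddx6). The genes given here were named after their values were seen. Dab1, the adaptor of reelin signalling, had -0.96 among arrays numbered 7 to 10 (SE 0.12, limma with Benjamini-Hochberg adjusted p = 0.0318). Its difference was 0.020 among arrays numbered 1 to 6. Usp9x, a deubiquitinase of neuronal development, had -0.91 (SE 0.15, adjusted p = 0.0432 in the same limma fit) and 0.067. Atrx, a chromatin remodeller, had -2.22 and -0.084, and Ago2, the slicer of RNA interference, -2.46 and 0.26. Ddx6, a helicase of mRNA decay, had -3.34 and 1.07. Eif3a, Sppl2a, Camk4, Lcorl, Zfp292 and Ccnh of the leading genes were also among the 33. The difference between arrays numbered 7 to 10 and 1 to 6 passed the test for 0 probe sets, and controls 7 to 10 all lay in 1 array cluster, so drug and cluster cannot be fully told apart there.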
